A study of Homo sapiens with 12 samples.

Results

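Expression of 48 genes of DNA replication and nucleotide supply was followed by RNA sequencing of 12 libraries from cells that the sample labels give as MDA-MB-231, an established triple-negative line of human breast cancer. The series' design text calls the cells LM3, and the labels describe them as lung metastatic; that LM3 is a derivative of MDA-MB-231 was assumed here. The 48 genes were chosen by name, with earlier results of these data known, and were all found among the 57730 genes of the count table. Comparisons of these genes with all genes are therefore descriptive. All 48 passed the filter on low counts and were tested with 14706 genes in all. The libraries form 4 groups of 3. Cells of the shControl group carried a control short hairpin RNA, and cells of the shACSL5 group carried a hairpin against ACSL5, which encodes an acyl-CoA synthetase that activates long-chain fatty acids. The shControl_PA and shACSL5_PA groups were the same cells treated with palmitic acid (palmitate), a saturated fatty acid. The labels do not distinguish several ACSL5 hairpins, so an off-target effect of the hairpin cannot be told apart from an effect of ACSL5. The dose, vehicle and duration of palmitate and the hairpin sequence were not given in the sources used here. The labels do not say that the 3 libraries of a group came from separate cultures, so p-values measure the spread between these libraries, which may be technical.

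Replication starts when the origin recognition complex, with CDC6 and CDT1, loads the ring-shaped MCM helicase onto DNA before S phase. CDC45 and the GINS complex then join MCM to form the active helicase, and polymerases, the PCNA clamp and its loader copy the unwound strands, which RPA coats while they are single. Ribonucleotide reductase, thymidylate synthase and thymidine kinase supply deoxynucleotides, and many of these genes are transcribed through E2F factors as cells enter S phase.

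ACSL5 was measured at 142, 143 and 145 CPM (read counts scaled to a common library size) in the shControl libraries and at 10.9, 10.2 and 12.5 CPM in the shACSL5 libraries. The groups did not overlap, and 7.82% of the control level was left (log2 change -3.67, SE 0.07, adjusted p = 4.2e-21). With palmitate 8.01% was left, and palmitate itself raised ACSL5 in control cells by 0.41 on the log2 scale. An exact 2-sided permutation test of 3 against 3 gave p = 0.1, the smallest such a test can give. Library totals were 16788694 to 21814751 counts. Markers of mesenchymal breast cancer cells were high in all libraries, with VIM at 2547 to 4030 CPM and AXL at 587 to 721 CPM, and the hormone receptor genes ESR1 and PGR did not exceed 0.439 and 0.0549 CPM. The other 4 luminal markers had counts, with ERBB2 at 54.5 to 83.0 CPM, GATA3 at 4.89 to 9.44 CPM, FOXA1 at 6.22 to 7.90 CPM and EPCAM at 1.69 to 5.09 CPM. Of fibroblast markers, COL1A1 was at 7.90 to 15.4 CPM and PDGFRB at 3.99 to 14.6 CPM, while COL1A2 was at 0 and DCN and LUM did not exceed 0.0545 and 0.114 CPM.

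The knockdown without palmitate, shACSL5 against shControl, asks how replication genes differ once ACSL5 is lowered. Of the 48 genes, 36 were called higher and 7 lower at an adjusted p under 0.05, and 5 were not called, against 29.7% of all genes tested called higher and 32.6% called lower. The median log2 change was 0.25 over the 48 genes and -0.02 over all genes tested. Changes were small: the highest was 0.90 for GINS3 and the lowest -0.41 for ORC2. Summed over the 48 genes, the level was 5112 to 5240 CPM in shControl and 6435 to 6463 CPM in shACSL5. In RNA from a whole culture, more cells expressing a gene and more RNA per cell cannot be told apart. The called falls were the less stable side: 4 of the 7 were called with DESeq2, which did not call ORC3, POLE2 and LIG1 (adjusted p = 0.0716, 0.102 and 0.148).

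**Figure D1:**
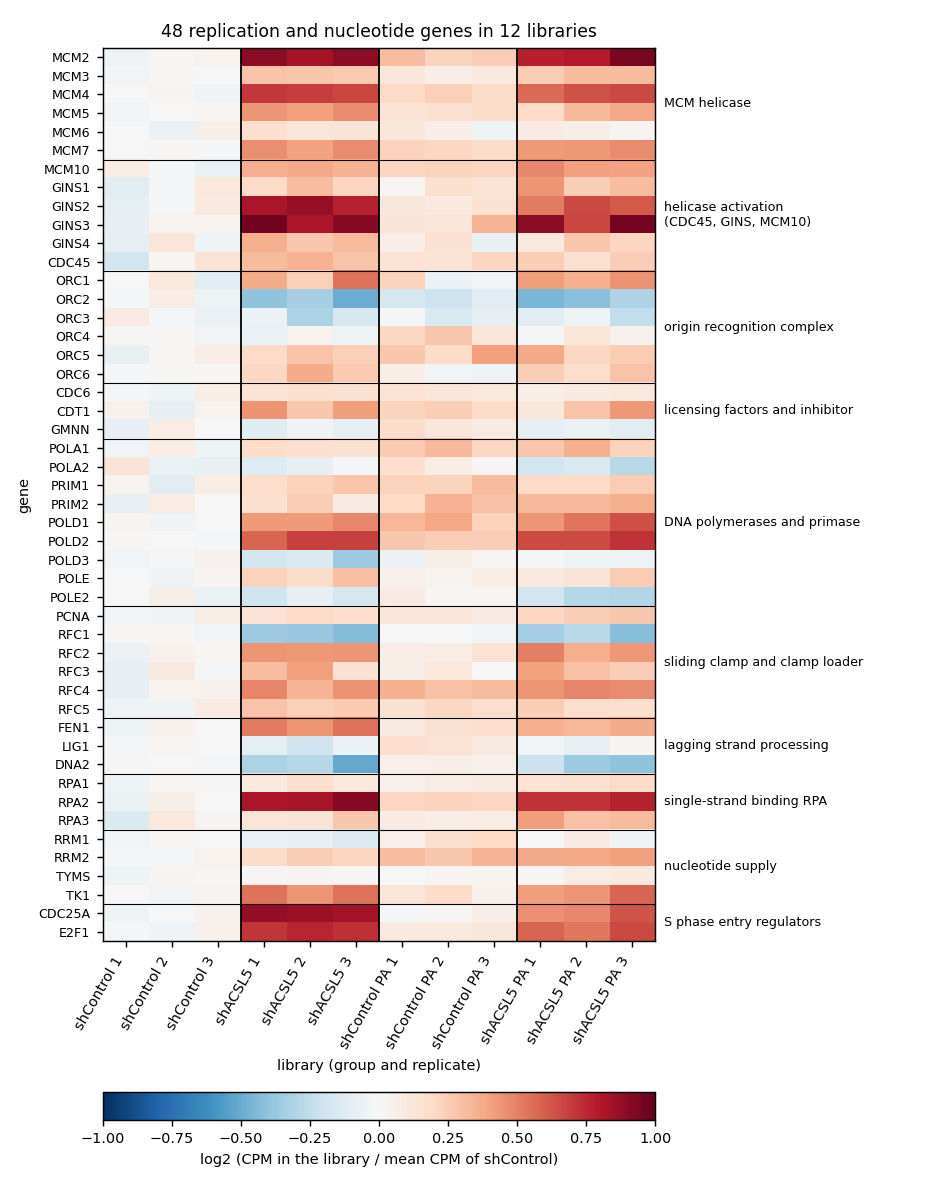
Heat map of 48 genes (vertical, grouped by role) in 12 libraries (horizontal), coloured by the log2 ratio of a library's CPM to the mean CPM of the 3 shControl libraries. Red dominates the 3 shACSL5 columns, with GINS3, MCM2, RPA2 and CDC25A deepest, while ORC2, RFC1 and DNA2 are blue there.

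All 6 subunits of the MCM helicase rose with the knockdown, with a median log2 change of 0.44. MCM2 (chr3:127598223-127622436, plus strand, GRCh38, as annotated in GENCODE 29) was at 128, 133 and 135 CPM in shControl and at 247, 235 and 245 CPM in shACSL5. No shACSL5 library came near the control range, and the change was 1.83-fold (log2 0.88, SE 0.04, adjusted p = 3.9e-14). An antisense gene, AC023593.1, overlaps 22.7% of the annotated exon bases of MCM2, and reads of the 2 cannot be separated where counting ignored strand. MCM4 was at 242, 246 and 234 CPM against 394, 388 and 382 CPM (log2 0.69, SE 0.03, adjusted p = 2.38e-14). MCM7 rose from 445, 449 and 442 CPM to 614, 589 and 617 CPM (log2 0.45, SE 0.03, adjusted p = 1.88e-12). For both genes the groups were well apart. The other 3 subunits rose by less: MCM5 by 0.44, MCM3 by 0.27 and MCM6 by 0.14 on the log2 scale. MCM6, at 148, 143 and 154 CPM against 167, 161 and 162 CPM, had the least change of the ring's subunits (adjusted p = 0.0059).

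Transcripts of the genes whose products turn the loaded ring into an active helicase were also higher, with 6 of 6 called and a median log2 change of 0.34. GINS3, a subunit of the GINS complex, was at 18.3, 19.9 and 19.9 CPM in shControl and 37.7, 34.2 and 36.4 CPM in shACSL5 (1.87-fold, log2 0.90, SE 0.08, adjusted p = 2.28e-09). GINS2, another GINS subunit, was at 39.7, 41.6 and 45.2 CPM against 74.2, 76.9 and 71.6 CPM (log2 0.82, SE 0.06, adjusted p = 1.47e-11). Both genes had every shACSL5 library above every control library. The remaining GINS subunits moved less, GINS4 by 0.32 and GINS1 by 0.24. On the opposite strand, AC009630.2 overlaps 21.2% of the GINS4 exon bases and AC009118.2 overlaps 10.9% of those of GINS3. Reads cannot be separated there where counting ignored strand. MCM10, which helps activate the helicase, rose by 0.36 (SE 0.04), and CDC45 by 0.31 (SE 0.06), with control libraries spread from 44.8 to 56.5 CPM and knockdown libraries from 62.1 to 64.9 CPM.

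**Figure D2:**
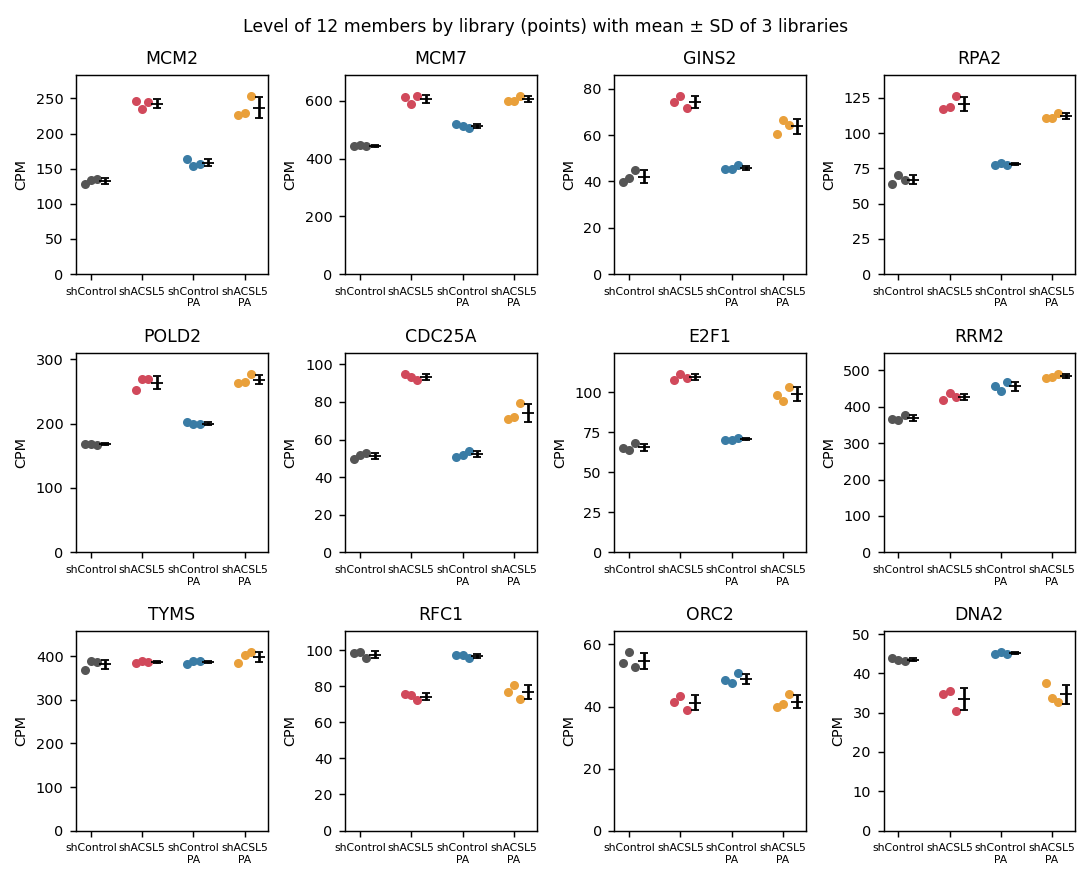
CPM (vertical axes, from 0) of 12 genes in each library (coloured points) by group, with the mean and SD of 3 libraries in black. MCM2, MCM7, GINS2, RPA2, POLD2, CDC25A and E2F1 are higher in both knockdown groups, TYMS is level across the 4 groups, and RFC1, ORC2 and DNA2 are lower in both knockdown groups.

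The origin recognition complex was split, with 3 of 6 subunits higher (50%), 2 lower (33.3%) and 1 not called. Of all genes tested, 29.7% were higher and 32.6% lower, so the share lower was near that of all genes. ORC1, the subunit whose level varies over the cell cycle, was at 28.2, 30.4 and 26.1 CPM against 36.4, 33.2 and 41.1 CPM (log2 0.39, SE 0.08, adjusted p = 0.000297). ORC2 went the other way, from 53.9, 57.5 and 52.7 CPM to 41.4, 43.5 and 38.8 CPM (log2 -0.41, SE 0.06, adjusted p = 2.37e-06). In both genes the 2 groups were separate. ORC6 rose by 0.28 and ORC5 by 0.24, and ORC4 had a log2 change of -0.03 that was not called. ORC3 fell by 0.18 with overlapping groups (adjusted p = 0.0341), and its call was lost when shControl 1, shControl 2, shACSL5 2 or shACSL5 3 was left out (adjusted p = 0.147, 0.0544, 0.185 and 0.0632).

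Of the factors that load MCM at origins, CDT1 rose from 66.2, 60.9 and 65.9 CPM to 87.8, 77.8 and 86.1 CPM (log2 0.38, SE 0.06, adjusted p = 1.68e-05). CDC6 rose by 0.15 (SE 0.03, adjusted p = 0.000682). The groups were separate for both. GMNN, which encodes geminin, the inhibitor of CDT1, had a log2 change of -0.08 and was not called (adjusted p = 0.129), but it was called lower without shControl 1 (adjusted p = 0.042).

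RPA, the trimer that coats single-stranded DNA, had 3 of 3 subunits called higher, with very unequal sizes. RPA2 was at 64.1, 70 and 67.1 CPM in shControl and 117, 119 and 126 CPM in shACSL5 (1.80-fold, log2 0.85, SE 0.04, adjusted p = 1.48e-13). The large subunit RPA1 rose by 0.12 (SE 0.03, adjusted p = 0.002). RPA3 rose by 0.17 (SE 0.07, adjusted p = 0.0268), but leaving out shControl 1 or shACSL5 3 ended that call (adjusted p = 0.184 and 0.144). RPA2 thus had no overlap and a large gap between groups, while RPA3 had 37.7 CPM as its highest control library and 38.2 CPM as its lowest knockdown library.

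Polymerase genes were mostly higher, with 6 of 9 called higher (66.7%) and 2 lower (22.2%), against 29.7% and 32.6% of all genes tested. POLD2, an accessory subunit of polymerase delta, was at 169, 168 and 166 CPM against 252, 270 and 269 CPM (log2 0.65, SE 0.03, adjusted p = 2.21e-13). POLD1, the catalytic subunit of polymerase delta, was at 70.2, 67.1 and 69 CPM against 92.2, 92.4 and 96.1 CPM (log2 0.44, SE 0.05, adjusted p = 1.26e-07). Subunits of the same enzyme therefore differed, since POLD3 fell by 0.23 (SE 0.06, adjusted p = 0.0026), from 42.6, 43 and 44.9 CPM to 38.3, 39.3 and 33.8 CPM. The catalytic subunit of polymerase epsilon, POLE, rose by 0.24, and its partner POLE2 fell by 0.15 (adjusted p = 0.0322). The POLE2 call was lost without shControl 1, shControl 2, shACSL5 1 or shACSL5 3 (adjusted p = 0.0655, 0.133, 0.123 and 0.0744). In the polymerase alpha and primase complex, which starts each strand, POLA1 rose by 0.16, PRIM1 by 0.23 and PRIM2 by 0.16, and POLA2 had a log2 change of -0.08 that was not called. PRIM1 lost its call without shControl 2 (adjusted p = 0.0578), and PRIM2 without shControl 1, shControl 3, shACSL5 1 or shACSL5 2 (adjusted p = 0.159, 0.076, 0.0724 and 0.158). POLA2, PRIM1 and PRIM2 share 34.7%, 11.9% and 15.3% of their 50-base stretches with other annotated genes, so counts for them are uncertain.

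PCNA, the sliding clamp that holds polymerases on DNA, rose from 226, 225 and 241 CPM to 255, 263 and 259 CPM (log2 0.17, SE 0.03, adjusted p = 0.000166). In the clamp loader, 4 small subunits rose: RFC2 by 0.44, RFC4 by 0.43, RFC3 by 0.29 and RFC5 by 0.26. RFC1, the large subunit of the loader, fell, from 98.3, 98.8 and 95.5 CPM to 75.7, 75 and 72.1 CPM (log2 -0.39, SE 0.04, adjusted p = 5.79e-08). Every knockdown library of RFC1 was below every control library.

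Genes for finishing Okazaki fragments, the short pieces of the lagging strand, moved in both directions. FEN1, the flap nuclease, was at 152, 161 and 157 CPM in shControl and 225, 212 and 228 CPM in shACSL5 (log2 0.50, SE 0.04, adjusted p = 5.98e-11). DNA2, a nuclease and helicase for long flaps, was at 43.8, 43.4 and 43 CPM against 34.8, 35.5 and 30.4 CPM (log2 -0.37, SE 0.07, adjusted p = 3.23e-05). Neither gene had overlapping groups. LIG1, the ligase that seals the fragments, fell by 0.12 at the edge of the threshold (adjusted p = 0.0499). Its call was lost without any 1 library other than shACSL5 3 and shACSL5_PA 3 (adjusted p = 0.0512 to 0.213).

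Of the 4 genes of nucleotide supply, TK1 and RRM2 rose. TK1, the cytosolic thymidine kinase, was at 165, 162 and 169 CPM against 241, 224 and 241 CPM (log2 0.51, SE 0.04, adjusted p = 1.13e-09). RRM2, the small subunit of ribonucleotide reductase, was at 366, 364 and 377 CPM against 419, 437 and 427 CPM (log2 0.21, SE 0.03, adjusted p = 1.05e-06), and both genes had separate groups. AC007240.1 overlaps 20.2% of the RRM2 exon bases on the same strand. RRM2 shares 20.2% of its 50-base stretches with other annotated genes, foremost this same AC007240.1, so its counts are uncertain too. RRM1, the large subunit, was not called (log2 -0.09, adjusted p = 0.0778). TYMS, thymidylate synthase, was at 370, 390 and 387 CPM against 385, 389 and 386 CPM (log2 0.02, SE 0.03, adjusted p = 0.652), and its groups overlapped in all comparisons. ENOSF1 overlaps 39.2% of the TYMS exon bases on the opposite strand.

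Both regulators of S phase entry rose. CDC25A, the phosphatase that activates CDK2, was at 49.8, 51.6 and 52.9 CPM in shControl and 94.8, 93 and 91.8 CPM in shACSL5 (1.81-fold, log2 0.86, SE 0.05, adjusted p = 1.19e-12). E2F1, a transcription factor of S phase genes, was at 65, 63.9 and 68.2 CPM against 108, 111 and 109 CPM (log2 0.73, SE 0.04, adjusted p = 1.72e-12). In each gene the knockdown libraries lay close together, far above the controls.

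The promoters of these genes are described here, and their part in the expression changes was not tested. RefSeq promoters of GRCh38.p14, from 250 bases before to 50 after the start, were matched for 41 of the 48 genes. They were searched on both strands for 4 E2F-type octamers, TTTCCCGC, TTTCGCGC, TTTGCCGC and TTTGGCGC, which can overlap one another, and for CCAAT. An octamer was in 20 of 41 promoters (48.8%), against 3.33% of all 27305 promoters in the table and 5.4% of the 10787 promoters of genes tested. CCAAT was in 58.5% of the 41, against 35.7% of all promoters and 36.7% of those tested. An octamer was held by 15 of 31 promoters of genes called higher with the knockdown, 3 of 5 of genes called lower and 2 of 5 of genes not called. The promoters of the 3 genes with the largest rise, GINS3, MCM2 and CDC25A, and of ORC2, with the largest fall, follow 5′ to 3′ on the gene's strand, with octamers and CCAAT in capitals. A CCAAT box on the opposite strand reads as ATTGG here.
GINS3 promoter, chr16:58392221-58392520, plus strand: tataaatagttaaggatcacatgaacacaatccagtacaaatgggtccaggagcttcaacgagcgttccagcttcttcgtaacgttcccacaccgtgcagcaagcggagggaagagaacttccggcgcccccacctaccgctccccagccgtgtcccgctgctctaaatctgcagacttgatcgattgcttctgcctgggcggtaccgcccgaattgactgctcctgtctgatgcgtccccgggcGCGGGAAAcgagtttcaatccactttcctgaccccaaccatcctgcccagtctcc
MCM2 promoter, chr3:127598161-127598460, plus strand: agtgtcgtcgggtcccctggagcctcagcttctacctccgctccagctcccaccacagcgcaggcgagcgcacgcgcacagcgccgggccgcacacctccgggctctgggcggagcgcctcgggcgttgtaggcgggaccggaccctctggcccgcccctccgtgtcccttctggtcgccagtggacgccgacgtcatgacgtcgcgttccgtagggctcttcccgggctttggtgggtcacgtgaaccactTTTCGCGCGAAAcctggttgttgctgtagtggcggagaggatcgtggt
CDC25A promoter, chr3:48188368-48188667, minus strand: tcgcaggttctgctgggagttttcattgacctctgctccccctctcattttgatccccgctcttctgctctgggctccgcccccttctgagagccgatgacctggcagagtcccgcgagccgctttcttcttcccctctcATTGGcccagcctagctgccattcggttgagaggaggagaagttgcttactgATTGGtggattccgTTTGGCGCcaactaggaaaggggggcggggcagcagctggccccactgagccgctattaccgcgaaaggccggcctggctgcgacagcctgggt
ORC2 promoter, chr2:200963611-200963910, minus strand: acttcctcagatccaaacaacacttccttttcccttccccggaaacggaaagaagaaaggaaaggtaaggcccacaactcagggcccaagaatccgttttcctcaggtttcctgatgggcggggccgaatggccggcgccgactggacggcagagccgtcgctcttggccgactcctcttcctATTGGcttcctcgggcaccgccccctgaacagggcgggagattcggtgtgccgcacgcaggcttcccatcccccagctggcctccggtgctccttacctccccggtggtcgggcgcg

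The MCM2 promoter holds 1 octamer on each strand, and these overlap in the capital run just after the start. GINS3 and CDC25A hold 1 octamer each, CDC25A also holds 2 CCAAT boxes, and ORC2 holds CCAAT but no octamer. All 4 MCM ring promoters that were matched, MCM2, MCM3, MCM6 and MCM7, hold 2 or more octamers, which was so in 0.154% of all promoters. MCM6 holds 4, as 2 copies of an overlapping pair, and E2F1 holds 2. These stretches were chosen after the matches were seen, with octamers in capitals.
MCM6 stretch, chr2:135876512-135876604, minus strand: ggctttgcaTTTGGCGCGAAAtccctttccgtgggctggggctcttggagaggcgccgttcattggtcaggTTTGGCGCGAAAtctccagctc
E2F1 stretch, chr20:33686388-33686427, minus strand: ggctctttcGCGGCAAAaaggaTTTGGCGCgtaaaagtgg
MCM6 had the most octamers of the 4 matched ring promoters and the least change with the knockdown. A match describes letters in the window only, and a relation between octamers and the size of a change was not tested.

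With palmitate present, shACSL5_PA against shControl_PA, rises again outnumbered falls. Of the 48 genes, 25 were called higher and 9 lower, against 24.4% and 26.1% of all genes tested, with a median log2 change of 0.12. This comparison shares no library with the one without palmitate. The 25 genes higher here were all among the 36 higher without palmitate, that is 25 of 25 and 25 of 36. Lower in both were 5 genes, 5 of 9 and 5 of 7. The overlap of calls over all genes tested was not counted, so this overlap is not shown to be particular to the 48 genes. MCM2 was at 164, 154 and 157 CPM in shControl_PA and 227, 229 and 254 CPM in shACSL5_PA (log2 0.58, SE 0.04, adjusted p = 1.08e-10). RPA2 was at 77.6, 78.7 and 77.3 CPM against 111, 110 and 114 CPM (log2 0.52, SE 0.04, adjusted p = 1.26e-09). The groups of both genes were separate. GINS3 rose by 0.64, CDC25A by 0.50, E2F1 by 0.48, GINS2 by 0.47 and POLD2 by 0.42.

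The 11 genes that were higher without palmitate and not called with it were MCM6, CDC45, GINS4, ORC5, CDC6, CDT1, RFC5, POLA1, PRIM1, PRIM2 and POLE. Their log2 changes with palmitate lay between -0.04 for PRIM1 and 0.15 for GINS4. POLE and GINS4 were near the threshold (adjusted p = 0.0511 and 0.0596). POLE was called higher with DESeq2 (0.04), library sizes alone (0.0444), the replicate block (0.026), only the groups of the contrast (0.0313) and without shACSL5 2, shACSL5 3 or shACSL5_PA 1 (0.0485, 0.0426 and 0.0246). GINS4 was called higher without the filter (0.0343), with the replicate block (0.0461), with only the groups of the contrast (0.0364) and without shControl_PA 2 or shACSL5_PA 1 (0.0222 and 0.0229). CDT1, for example, was at 75.2, 76.4 and 73.4 CPM in shControl_PA and 69.7, 78.6 and 87.1 CPM in shACSL5_PA, so its groups overlapped. Of the 11 genes, CDC45, CDC6, CDT1 and RFC5 were called in the interaction test described below, CDC45 and CDT1 depending on single libraries. MCM6, GINS4, ORC5, POLA1, PRIM1, PRIM2 and POLE were not called in it. For these, a missing call with palmitate does not show that the knockdown change differed. Falls with palmitate were called for RFC1 (log2 -0.34), DNA2 (-0.38), ORC2 (-0.23), POLE2 (-0.30), POLA2 (-0.29), GMNN (-0.21), LIG1 (-0.16), ORC4 (-0.15) and RRM1 (-0.12). RFC1 was at 97.6, 97.3 and 95.8 CPM against 76.9, 80.4 and 72.7 CPM, and DNA2 at 45, 45.4 and 45 CPM against 37.4, 33.7 and 32.8 CPM. Both genes were clearly apart. Calls for ORC4, RFC4 and RRM1 were the least firm: ORC4 was lost with DESeq2 (adjusted p = 0.0592) and without shControl_PA 1, shControl_PA 2, shACSL5_PA 1 or shACSL5_PA 3 (adjusted p = 0.0708, 0.167, 0.144 and 0.0661), RFC4 was lost without each of 10 libraries (adjusted p = 0.053 to 0.122), and RRM1 was lost without shControl_PA 2, shControl_PA 3, shACSL5_PA 1 or shACSL5_PA 3 (adjusted p = 0.0897, 0.131, 0.0651 and 0.103). Leaving out 1 library also ended the calls of GINS1 (shACSL5_PA 1, 0.0558), LIG1 (shACSL5_PA 2, 0.051), RPA1 (shControl_PA 1 or shACSL5_PA 3, 0.0696 and 0.0614) and RRM2 (shControl_PA 2 or shACSL5_PA 3, 0.0811 and 0.0582).

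**Figure D3:**
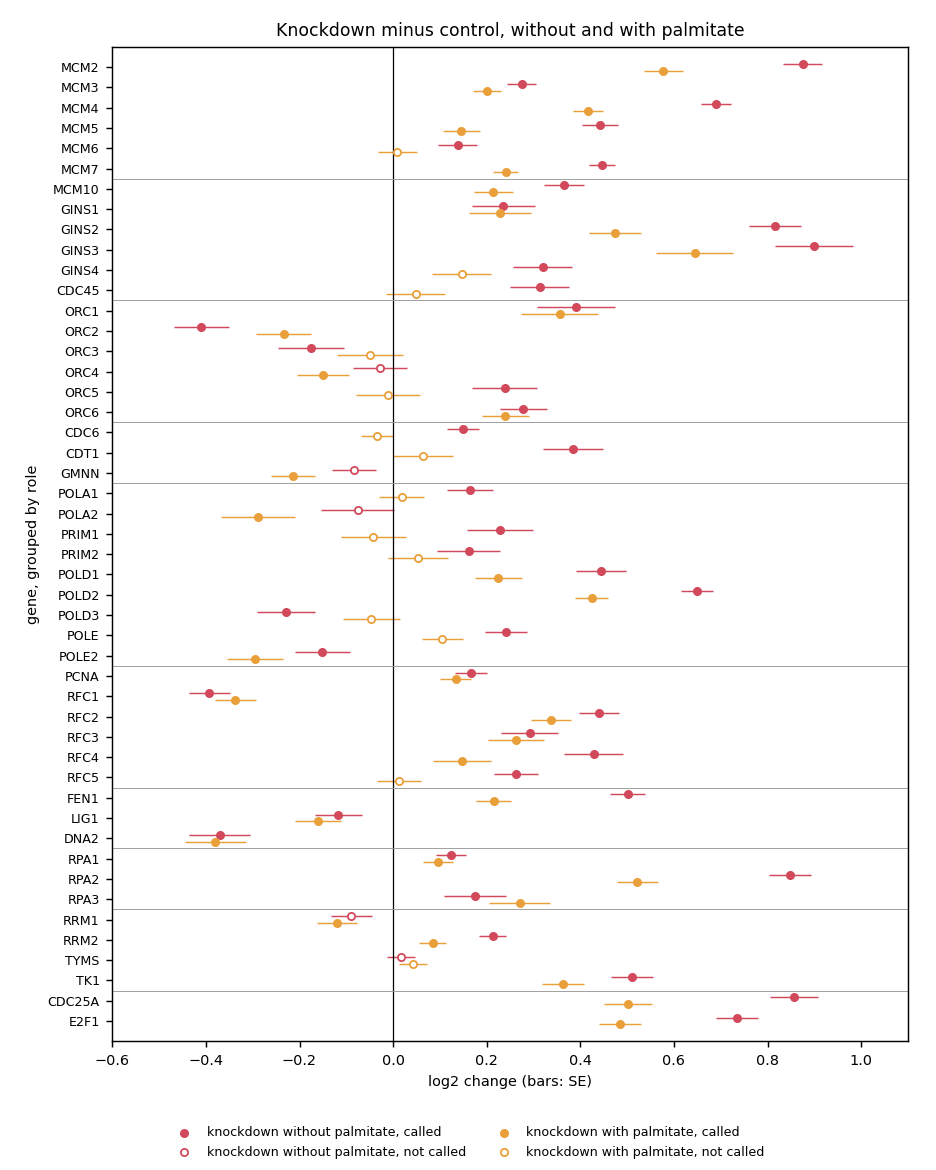
Log2 change of each gene (horizontal, bars are SE) for knockdown minus control without palmitate (red) and with palmitate (orange), filled where called at an adjusted p under 0.05. Most points lie right of 0, GINS3 and MCM2 farthest at 0.90 and 0.88, and RFC1, DNA2 and ORC2 lie left of 0 in both comparisons.

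Palmitate alone, shControl_PA against shControl, was followed by rises in RRM2, polymerase and MCM genes. Of the 48 genes, 24 were called higher and 1 lower, against 15.1% and 13.5% of all genes tested, and the median log2 change was 0.12. This comparison uses the same shControl libraries as the knockdown without palmitate, so the 2 are not independent. RRM2 was at 366, 364 and 377 CPM without and 457, 444 and 467 CPM with palmitate (log2 0.31, SE 0.03, adjusted p = 4.55e-08). MCM2 went from 128, 133 and 135 CPM to 164, 154 and 157 CPM (log2 0.26, SE 0.04, adjusted p = 8.44e-05). MCM7 went from 445, 449 and 442 CPM to 521, 513 and 505 CPM (log2 0.20, SE 0.03, adjusted p = 5.56e-06). None of the 3 had overlapping groups.

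By role, palmitate in control cells was called higher for 5 of 6 MCM subunits, 5 of 9 polymerase and primase genes and 3 of 6 clamp and loader genes. It was called higher for 3 of 3 licensing genes, 2 of 6 origin recognition subunits and 2 of 3 lagging strand genes. Of RPA subunits 1 of 3 was higher, and of nucleotide supply genes 2 of 4. Helicase activation had 1 of 6 higher (16.7%), near the 15.1% of all genes tested. POLD1 rose by 0.32, RFC4 by 0.32, ORC5 by 0.29, PRIM2 by 0.28, POLA1 by 0.26, POLD2 by 0.25 and PRIM1 by 0.25. CDC25A and E2F1, the regulators of S phase entry, were not called (log2 0.02 and 0.10). ORC2 was the 1 gene called lower (log2 -0.16, adjusted p = 0.0414), and was not called with DESeq2 (adjusted p = 0.0758) or without shControl 1, shControl 2, shACSL5 1, shControl_PA 1 or shControl_PA 2 (adjusted p = 0.0523 to 0.19). Scaling by library size alone left 16 of the 24 called higher. The 8 lost were MCM3, ORC4, CDC6, GMNN, PCNA, FEN1, LIG1 and RRM1, whose log2 changes had been 0.09 to 0.20. Each of these but FEN1, and also CDT1 and PRIM1, lost its call without at least 1 library (adjusted p up to 0.204, for GMNN without shControl 1). In that scaling, 35.9% of all called genes were higher, against 52.8% with the scaling used throughout.

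In knockdown cells, shACSL5_PA against shACSL5, fewer replication genes were called with palmitate than in control cells. Of the 48 genes, 2 were called higher (4.17%) and 5 lower (10.4%), against 12.1% and 9.78% of all genes tested. The share called lower was thus near that of all genes, and the median log2 change was 0.01. This comparison uses the same shACSL5 libraries as the knockdown without palmitate, so those 2 comparisons are not independent. RRM2 went from 419, 437 and 427 CPM to 479, 482 and 490 CPM (log2 0.18, SE 0.03, adjusted p = 9.9e-05) and POLD3 rose by 0.19 (adjusted p = 0.0291). CDC25A fell from 94.8, 93 and 91.8 CPM to 70.6, 71.9 and 79.4 CPM (log2 -0.33, SE 0.05, adjusted p = 2.91e-05). For RRM2 and CDC25A the groups did not overlap. GINS2 fell by 0.22, FEN1 by 0.15, E2F1 by 0.15 and MCM5 by 0.14. The POLD3 call was lost without shACSL5 3, shACSL5_PA 1 or shACSL5_PA 2 (adjusted p = 0.174, 0.0906 and 0.0574), that of MCM5 without shACSL5_PA 1 (0.101), and that of E2F1 without shACSL5 2, shACSL5_PA 1 or shACSL5_PA 2 (0.0596, 0.0531 and 0.106). Palmitate in control and in knockdown cells share no library, and RRM2 was higher in both, 1 of 24 and 1 of 2. MCM5 and FEN1 were higher in control and lower in knockdown cells. Such overlaps over all genes tested were not counted.

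**Figure D4:**
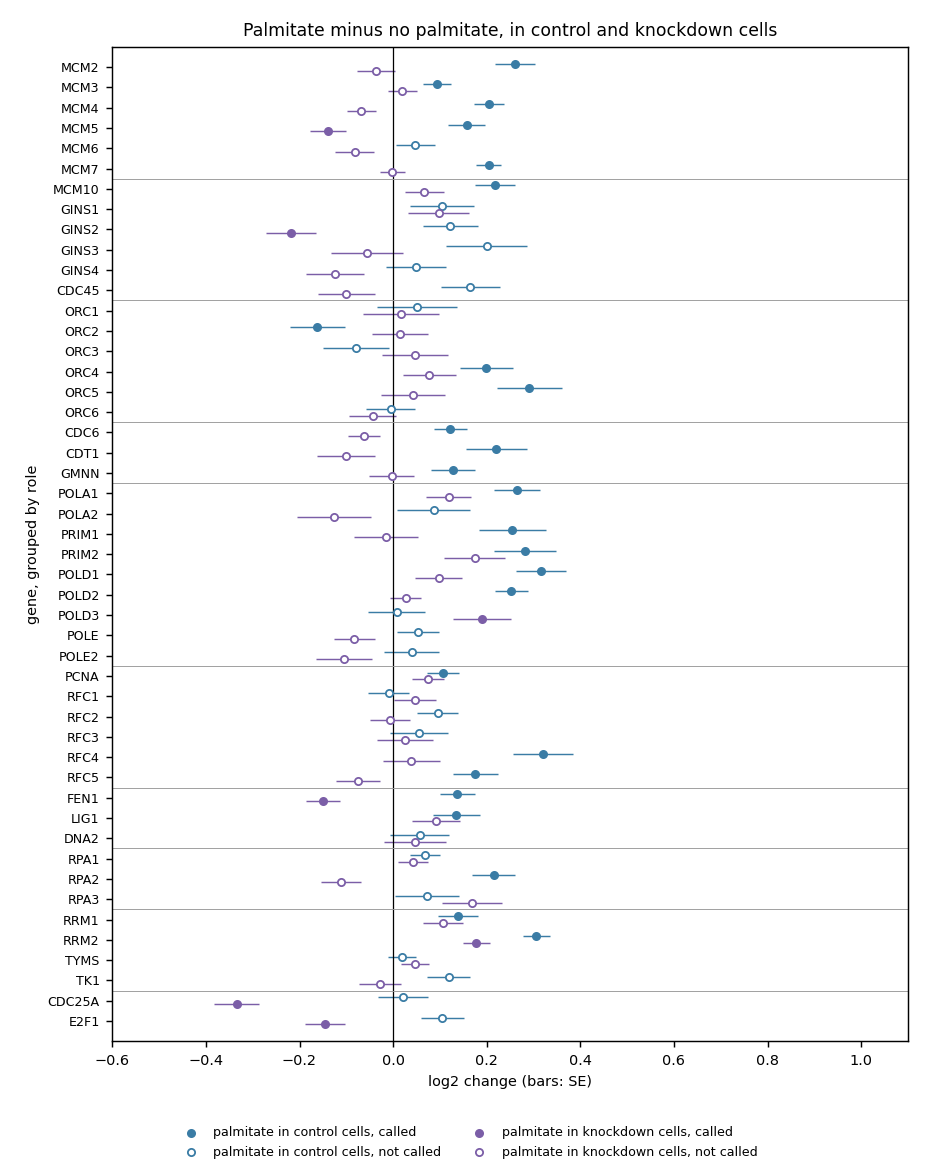
Log2 change of each gene (horizontal, bars are SE) for palmitate minus no palmitate in control cells (blue) and knockdown cells (purple), filled where called at an adjusted p under 0.05. Blue points lie mostly right of 0, up to 0.32, while purple points scatter around 0, with CDC25A at -0.33.

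The interaction term subtracts the palmitate change of control cells from that of knockdown cells and tests whether the responses differ. It reuses the libraries of the comparisons above, so it is not independent of them. The shControl and shACSL5 libraries enter it with signs opposite to those in the knockdown without palmitate. Of the 48 genes, 0 were higher and 17 lower, against 7.15% and 7.39% of all genes tested, with a median of -0.15 on the log2 scale against 0.01 over all genes tested. The interaction of MCM2 was -0.30 (SE 0.06, adjusted p = 0.00155), from a palmitate change of 0.26 in control and -0.04 in knockdown cells. For MCM4 it was -0.27 (SE 0.05, adjusted p = 0.000274), from 0.21 and -0.07. For CDC25A it was -0.36 (SE 0.07, adjusted p = 0.00179), from 0.02 and -0.33. In MCM2 and MCM4 the rise in control cells made most of the difference, and in CDC25A the fall in knockdown cells did. The origin recognition complex had 0 of 6 subunits called, which says little beside the 7.15% and 7.39% of all genes tested. Calls for CDC45, CDT1, POLD1, RFC4 and RRM2 depended on single libraries: they were lost without each of 11, 4, 10, 7 and 8 libraries, with an adjusted p of up to 0.14, 0.0599, 0.148, 0.0931 and 0.0949.

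Other genes of the pathway, from 11 lists that hold 151 genes, were read the same way. These lists too were chosen with earlier results of these data known. Without palmitate the knockdown had 58 of 117 other replication and nucleotide genes higher (49.6%) and 23 lower (19.7%), against 29.7% and 32.6% of all genes tested. Chromatin assembly behind the fork had 7 of 9 higher, among them UHRF1, a reader of newly copied DNA methylation (202 to 294 CPM, log2 0.54), and DNMT1, the maintenance methyltransferase (507 to 657 CPM, log2 0.37). De novo pyrimidine synthesis had 4 of 5 higher, led by CAD, the enzyme of its first steps (148 to 242 CPM, log2 0.72, adjusted p = 4.15e-12). De novo purine synthesis had 9 of 12 higher and 1 lower, with IMPDH2, of guanine nucleotide synthesis, at 191 to 282 CPM (log2 0.56).

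Deoxynucleotide supply and salvage outside the 48 had 10 of 15 higher and 3 lower. For NME1, a nucleoside diphosphate kinase, the means were 162 and 282 CPM (log2 0.80, adjusted p = 1.03e-14). DCK, the deoxycytidine kinase of salvage, fell from 74.7 to 19.6 CPM (log2 -1.93, SE 0.06, adjusted p = 6.82e-18), a larger change than that of any of the 48. RRM2B, the p53-induced subunit of ribonucleotide reductase, fell by 0.70. Other fork proteins had 8 of 15 higher (53.3%) and 2 lower. Origin firing factors had 4 of 13 higher (30.8%) and 2 lower, and folate enzymes 2 of 6 higher (33.3%) and 3 lower, shares of higher genes that are near the 29.7% of all genes tested.

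The cell cycle lists were mixed, and are read against the same 29.7% higher and 32.6% lower of all genes tested. The E2F and RB family had 4 of 16 higher (25%, below that share) and 3 lower (18.8%). Among those higher were E2F4 (87.7 to 140 CPM, log2 0.68) and TFDP1, the E2F partner (176 to 269 CPM, log2 0.62). Among those lower were RBL2 (log2 -0.59) and RB1 (log2 -0.37). Of G1/S cyclins, kinases and inhibitors, 7 of 15 were higher (46.7%) and 4 lower (26.7%). CDK4 rose by 0.73 and CCND3 by 0.70. The CDK inhibitor CDKN1A fell from 62.7 to 22.5 CPM (log2 -1.47, adjusted p = 8.62e-15). SKP2 fell from 54.2 to 22.9 CPM (log2 -1.24, adjusted p = 4.16e-13). The replication checkpoint list had 3 of 11 higher (27.3%) and 4 lower (36.4%), both near the shares of all genes, ATR among them (log2 -0.40). Genes of G2 and mitosis had 10 of 30 higher (33.3%, near that share) and 17 lower (56.7%), with a median log2 change of -0.14: ANLN fell by 0.57 and CDK1 by 0.42, while AURKB rose by 0.55. With palmitate 7 of 30 were higher (23.3%) and 17 lower (56.7%), against 24.4% and 26.1% of all genes.

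**Figure D5:**
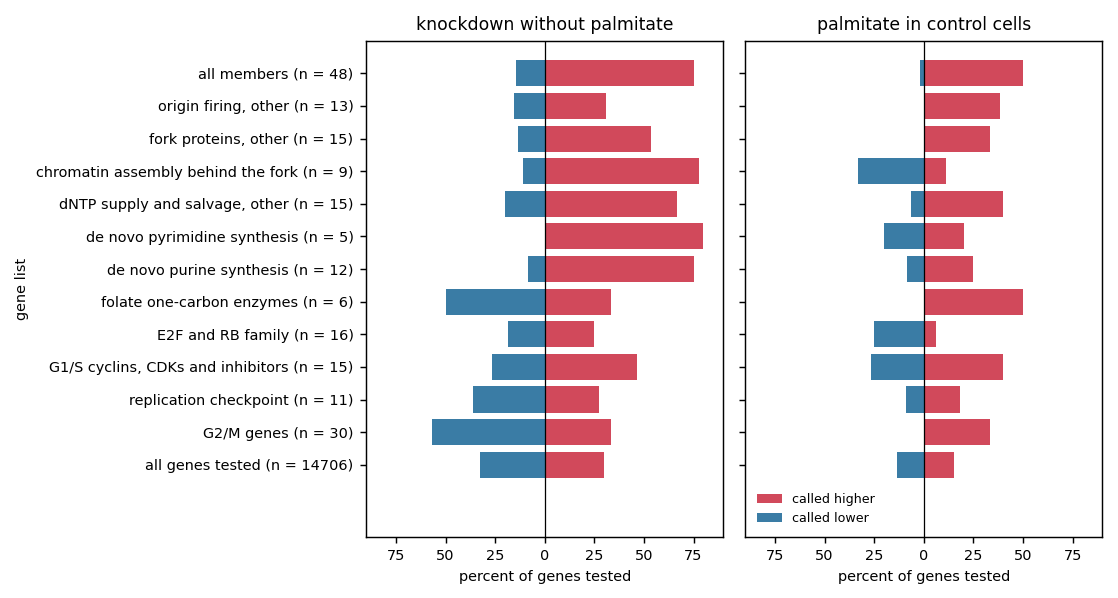
Percent of each list's tested genes called higher (red, right) or lower (blue, left) for the knockdown without palmitate and for palmitate in control cells. The 48 genes reach 75% higher and 14.6% lower in the left panel, and the G2/M list has the longest blue bar, at 56.7%.

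Palmitate in control cells had 10 of 30 G2 and mitosis genes higher (33.3%) and 0 lower, and 33 of the 117 other replication and nucleotide genes higher (28.2%) and 15 lower (12.8%), against 15.1% and 13.5% of all genes tested. PCLAF, which binds PCNA, was at 105 CPM without and 138 CPM with palmitate (log2 0.40, adjusted p = 3.29e-07). The E2F and RB family had 1 of 16 higher (6.25%), E2F4 (log2 0.24), and 4 lower (25%). Among those lower were E2F3 (log2 -0.30) and the repressor E2F8 (log2 -0.36). In knockdown cells 17 of the 117 were higher and 17 lower, 14.5% each, near the 12.1% and 9.78% of all genes tested. There CDKN1A rose from 22.5 to 39.9 CPM (log2 0.82). The interaction was positive for CDKN1A (0.57, adjusted p = 0.000146) and for DCK (0.31, adjusted p = 0.00946), and negative for NME1 (-0.33) and MTHFD1 (-0.29).

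Markers of other cell types also moved, in both directions. CD68, a macrophage marker, was called higher with the knockdown without palmitate (log2 0.45) and with it (log2 0.45), at 34.8 to 53.6 CPM over the 12 libraries, while the T cell marker CD3E was at 0 and PTPRC and CD14 did not exceed 0.369 and 0.651 CPM. Both endothelial markers tested, CDH5 and KDR, were called lower with the knockdown without palmitate (log2 -3.39 and -0.97), at very low levels: CDH5 had means of 1.16 and 0.103 CPM, and KDR of 2.76 and 1.41 CPM. The 4 endothelial markers in the table summed to 3.63 to 5.87 CPM in shControl, 1.56 to 1.95 CPM in shACSL5, 2.13 to 2.87 CPM in shControl_PA and 1.42 to 2.1 CPM in shACSL5_PA.

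The 5 fibroblast markers summed to 20.6 to 22.6 CPM in shControl, 25.6 to 29.9 CPM in shACSL5, 13.2 to 14.7 CPM in shControl_PA and 18.3 to 19.0 CPM in shACSL5_PA, with COL1A2 at 0. PDGFRB was called higher with the knockdown without and with palmitate (log2 0.51 and 0.81) and lower with palmitate in control and knockdown cells (log2 -1.11 and -0.81). COL1A1 was not called with the knockdown and was called lower with palmitate in both (log2 -0.32 and -0.32). Of the 6 mesenchymal markers, 1 was called higher with the knockdown without palmitate (EGFR, log2 0.26), 3 lower (PLAU -1.44, VIM -0.59 and MET -0.16) and 2 not called (AXL and CD44), with a median log2 change of -0.08. Of the 4 luminal markers tested, EPCAM was called higher (0.92), ERBB2 lower (-0.38), and GATA3 and FOXA1 were not called. The part of these markers in the differences of the replication genes was not tested.

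The 48 genes alone ordered the libraries by hairpin. Their first principal component held 84.9% of their variance, with shControl libraries at -1.75 to -1.43, shControl_PA at -0.80 to -0.76, shACSL5_PA at 0.89 to 1.28 and shACSL5 at 1.22 to 1.41. The shACSL5_PA and shACSL5 ranges overlapped through shACSL5_PA 3, and the other groups were apart. Over all genes tested the first component held 61.2% of the variance. Whether this ordering is particular to the 48 genes was not tested.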

How the data were processed

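Polyadenylated RNA of 12 libraries was sequenced. The authors deposited 1 table of raw read counts per gene. The submitters' processing notes name HISAT2 2.1.0, featureCounts, fastp 0.22.0 and the build GRCh38. The annotation release and strand setting were not given in the sources used here. Groups and replicate numbers came from the labels. Genes were filtered with filterByExpr, counts were scaled by TMM, and 4 group means were fitted over all 12 libraries with edgeR 4.0.16 (R 4.3.3). Differences were tested with the quasi-likelihood F test and Benjamini-Hochberg adjustment over 14706 genes, at a threshold of 0.05. SE is the log2 change divided by the root of F. CPM used the TMM-scaled totals, 16788694 to 21814751 before scaling. The fit was run on simulated data in which far fewer genes changed than were called here. That run therefore does not test the scaling or the error rates under such wide change. No 2 libraries of a group agreed within sampling noise (chi-square per degree of freedom 2.23 to 4.28). Same-numbered libraries did not deviate together (r -0.04 to 0.12), so no block was used. All 48 genes are reported. Of other lists, up to 2 called genes with the smallest p in each direction were named. Members and lists were chosen with earlier results of these data known. Alternatives were DESeq2 1.42.0, library sizes alone, no filter, a replicate block, the contrast's groups alone and leaving out each library. Exon overlap and shared sequence used GENCODE 29. The protein sequences planned for the MCM subunits were not used here.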

Additional observations from a re-analysis of the deposited data

Results flagged for a closer look

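For 17 of the 48 genes (35.4%) the response to palmitate differed between knockdown and control cells by the interaction test (edgeR, adjusted p under 0.05), and the palmitate change was the lower one in knockdown cells for each. Of all genes tested, 7.39% were called lower and 7.15% higher in this test. The interaction reuses the libraries of the other comparisons and is not independent of them. The calls of CDC45, CDT1, POLD1, RFC4 and RRM2 were lost when single libraries were left out. On the log2 scale the difference was -0.30 for MCM2, -0.27 for MCM4, -0.30 for MCM5 and -0.21 for MCM7 of the helicase ring. It was -0.34 for GINS2 and -0.27 for CDC45, which activate the ring, and -0.18 for CDC6 and -0.32 for CDT1, which load it. At the fork it was -0.28 for RFC4, -0.25 for RFC5, -0.22 for POLD1, -0.23 for POLD2, -0.29 for FEN1 and -0.33 for RPA2. For RRM2 of nucleotide supply it was -0.13, and for the S phase regulators CDC25A and E2F1 it was -0.36 and -0.25.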

How the results depend on the processing

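No called change reversed under any alternative run. With DESeq2 and with only the contrast's groups, 4 genes were called lower with the knockdown without palmitate, in place of 7, and leaving out 1 library gave 4 to 7 (4 without shControl 2). For palmitate in control cells, the 1 gene called lower became 0 with DESeq2 and 0 without the filter, and leaving out 1 library gave 0 to 1 (0 without shControl 1, shControl 2, shACSL5 1, shControl_PA 1 or shControl_PA 2). For palmitate in knockdown cells, 2 called higher became 1 with library sizes alone and 1 with only the contrast's groups, and leaving out 1 library gave 1 to 4 higher and 3 to 7 lower (1 and 3 without shACSL5_PA 1, 1 higher without shACSL5_PA 2, 4 higher and 7 lower without shACSL5_PA 3). The cause was not tested. With library sizes alone, 13 of the 17 interaction calls were kept, and 59.9% of all called interactions were higher, against 49.2%. Of the called genes, 37 of 43 (knockdown without palmitate), 14 of 25 (palmitate in control cells), 4 of 7 (palmitate in knockdown cells), 27 of 34 (knockdown with palmitate) and 12 of 17 (interaction) were called in every alternative. With the replicate block, 36 genes were higher and 7 lower with the knockdown without palmitate, and the interaction had 0 and 17. Same-numbered libraries correlated at -0.04 to 0.12 and others at -0.09 to 0.12.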
